A study of Mus musculus with 24 samples.

Results

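The comparison described here sets old mice, 24 months of age, against young mice, 8 months of age, both fed ad libitum, that is with free access to food. Its members were chosen by the label of sample type alone: 17 of the 24 arrays of the study, from 12 of its 17 mice. All mice were males of the B6D2F1 strain, a first-generation hybrid, from a colony kept for the National Institute on Aging, and the tissue was whole gastrocnemius, a calf muscle of mostly fast fibres. The old mice were on 7 arrays (6 mice) and the young mice on 10 arrays (6 mice), and arrays that carried the same name were averaged. The 5 old mice kept under caloric restriction, also 24 months of age, entered only the shared estimate of the spread between mice. The comparison is cross-sectional, the feeding state at sampling is not given in the sources used here, and nothing in the labels says outright that each name is a separate animal, so p-values refer to the spread among samples, which may be technical.

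Skeletal muscle loses mass and strength in old age. Part of that change is known to involve fibres that lose their motor nerve: such fibres return to embryonic and perinatal programmes, express acetylcholine receptor subunits outside the endplate and switch on myogenic factors. Whole muscle also holds fibroblasts, vessels, blood and immune cells, so in such bulk samples fewer cells of a type and less RNA per cell cannot be told apart.

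Each array reported 45281 probes. A probe was taken as detected where its detection p was under 0.01, and 14032.5 to 15176 probes were detected per young mouse against 13974 to 14779 per old mouse. The means were 14452 ± 417 (SD, n = 6) and 14230 ± 296 (SD, n = 6), a difference within the spread between mice (two-sided exact permutation test, p = 0.316; the smallest p this design allows is 0.0021645). The median raw signal per mouse overlapped as well (two-sided exact permutation test over n = 6 and 6, p = 0.942). After normalization 8943 genes were tested, and all levels below are log2 signals.

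Several samples stood apart from their group. Young mice 1, 2 and 3 carried transcripts of the hepatocyte, the liver cell that secretes most plasma proteins. Of 28 hepatocyte genes, a list drawn up after the values were seen, 24 were detected on some array, while no probe of Alb, Serpina3k, Fgb or Fabp1 was. Young mice 1, 2 and 3 had 24, 21 and 22 of them detected, the other young mice 3 or 4 and the old mice 3 to 7. The mean level over the list was 9.18, 8.02 and 8.35 in young mice 1, 2 and 3, between 5.25 and 5.48 in the other young mice, and between 5.27 and 5.55 in old mice. The summed level (log2 of the summed signals) ran from 13.76 to 15.04 in the first 3 young mice and from 10.02 to 10.85 in the other mice. Mup2, a major urinary protein, reached 13.62 in a young mouse and was as low as 6.09 in another.

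Old mouse 3 stood apart in genes of neutrophils and bone marrow. All 14 detected members of a 15-gene list, also drawn up after the values were seen, were detected in that mouse, against 3 to 5 in the other old mice and 1 or 2 in young mice. Their mean level was 9.26 in old mouse 3, between 5.48 and 5.75 in the other old mice and between 5.28 and 5.51 in young mice. Camp and Mpo, which encode neutrophil granule proteins, lay at 10.15 and 9.72 in that mouse, and their medians over old mice were 4.79 and 4.51. The erythroid list (6 of 8 markers detected; Hba-a2 and Hbb-b1 were not) had mean levels of 9.98 to 10.76 in young mice and 10.16 to 12.70 in old mice, highest in old mouse 3. Muscle fibre markers did not set young mice 1, 2 and 3 or old mouse 3 apart within their groups. All 8 (Acta1, Ckm, Myh4, Tnnt3, Pygm, Mb, Des and Myot) were detected in every mouse. Between the ages they differed slightly: all 8 had the lower mean in old mice (median -0.07). Their mean levels were 14.501 to 14.601 in young and 14.417 to 14.495 in old mice, without overlap.

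**Figure D1:**
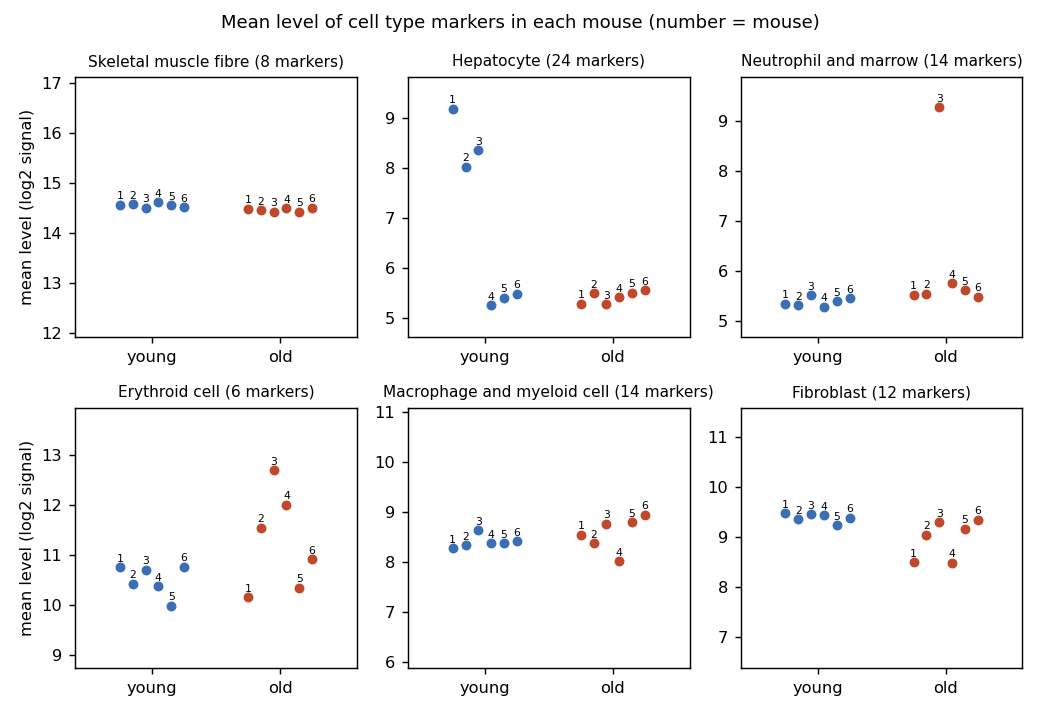
Mean level (log2 signal) of 6 lists of cell type markers in each young (blue) and old (red) mouse, with the mouse number above each point and axes of equal span in every panel. Young mice 1, 2 and 3 stand above all others in hepatocyte genes (8.02 to 9.18), and old mouse 3 in neutrophil and marrow genes (9.26).

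Of the 8943 genes, 184 (2.06%) passed an adjusted p of 0.05 between old and young mice: 120 rose with age (1.34%) and 64 fell (0.716%). Without any threshold the groups were close: the median log2 difference over all genes was 0.02, and 54.2% of genes were higher in old mice. Changes were modest in size, with a median of 0.48 among the rises and -0.43 among the falls, and 16 of the 184 were larger than 2-fold (14 up, 2 down). The 6 old mice lay wholly above the 6 young mice for 140 genes (1.57% of those tested) and wholly below for 92 (1.03%), 232 in all (2.59%). Of the genes that passed, 76 rises and 39 falls were separated in this way, and the groups overlapped for the other 69. When arrays were scaled to their 75th percentile instead of quantile normalized, 226 genes rose and 54 fell, and when that percentile was taken over the kept probes alone, 93 rose and 72 fell, so the balance of rises against falls depended on the scaling.

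The count depended on which mice were included. It was 79, 32 and 74 without young mouse 1, 2 or 3, which stood apart, and 79 without young mouse 4 and 68 without old mouse 5, which did not in those lists. Without young mice 1, 2 and 3 together, which leaves 3 young mice, a single gene passed (Prkcz). In that fit the median SE of the 184 genes was 0.13 against 0.10. All 184 kept their direction and had an unadjusted limma p under 0.05 (767 of all genes did), and the median rise and fall were 0.43 and -0.39. The mice left in that fit had also served to choose the 184 genes, so these values are not a separate test of them. Without old mouse 3, 262 genes passed, among them 161 of the 184. Within each of the 4 chips that held arrays of both ages, all 184 genes also kept their direction, but those arrays had also served to choose them, and young mouse 6 was on every chip. Over all genes 69.6% to 77.4% had the direction of the full comparison within a chip. Of the 184, 32 (26 rises and 6 falls) passed in every one of the 12 fits that left out 1 mouse. The part of the liver or marrow transcripts in any single result was not tested beyond these values.

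**Figure D2:**
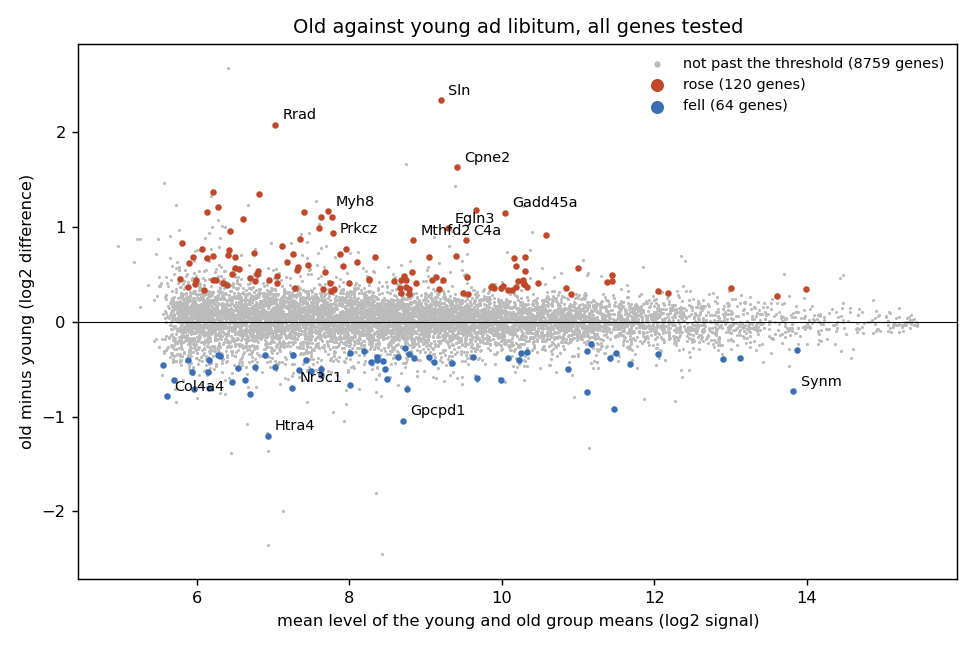
Difference between old and young mice (vertical axis, log2) against the mean level of the 2 group means (horizontal axis, log2 signal) for the 8943 genes tested. Red points are the 120 genes that rose, blue points the 64 that fell and grey points the rest; rises reach 2.33 (Sln) and falls -1.20 (Htra4).

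Prkcz, which encodes the atypical protein kinase C zeta, had the smallest adjusted p of all genes. Its level ran from 6.98 to 7.40 in young mice (median 7.25) and from 8.10 to 8.59 in old mice (median 8.30). The groups did not overlap, and the gap between them was wider than the range within either. The difference was 1.10 ± 0.09 SE, or 2.15-fold (limma, adjusted p = 3.47e-06, n = 6 and 6), and within single chips it lay between 1.07 and 1.24. Both other probes of Prkcz that passed the detection filter were higher in old mice too, by 1.10 and 1.54. Without young mice 1, 2 and 3 the difference was 1.02.

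The other genes with the smallest p were likewise separated. Cpne2, a copine that binds phospholipids in a calcium-dependent way, ran from 8.52 to 8.74 in young mice (median 8.59) and from 9.66 to 10.93 in old mice (median 10.20), a 3.09-fold rise (1.63 ± 0.24 SE, adjusted p = 0.00359). Young mice were tightly grouped and old mice spread over a wider range, highest in mice 5 and 6. Osbpl3, an oxysterol-binding protein of the lipid transfer family, rose by 0.95 ± 0.14 SE. Cracdl (1.08), Nudt14 (0.70), which hydrolyses sugar nucleotides, and Ece2 (0.72), an endothelin-converting metalloprotease, rose as well, each with an adjusted p of 0.00359. A second kept probe of Ece2 differed by 0.37. Spock2, a secreted proteoglycan of the testican family, was detected on all 7 old arrays and on none of the 10 young arrays. Its mean in old mice was at least 1.77-fold above the detection bound of the young arrays (adjusted p = 0.00418). S100a9, a calcium-binding protein of neutrophils, showed the same pattern of detection: it ran from 4.90 to 5.41 in young mice and from 6.25 to 12.28 in old mice, with old mouse 3 at the top. It did not pass (adjusted p = 0.184, and 0.28 without old mouse 3).

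The group of genes that respond to loss of the motor nerve held the largest rises. Their list, like the others here, was chosen with earlier results of these data known. Of 16 measured genes of denervation and the myogenic response, 6 rose, none fell and 15 had the higher mean in old mice. Their median difference was 0.97, against 0.02 over all genes. Leaving out any 1 mouse kept that median between 0.71 and 1.12, and it was 0.94 without young mice 1, 2 and 3 and 0.65 without old mice 5 and 6. Within single chips it ran from 0.58 to 2.16. The individual members differed in how evenly the old mice shared the rise.

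Sln encodes sarcolipin, a small peptide that inhibits the calcium pump of the sarcoplasmic reticulum. Its level ran from 7.57 to 8.24 in young mice (median 8.18) and from 8.48 to 13.29 in old mice (median 9.75). Each old mouse was above each young mouse, but old mouse 1 only just, while old mice 5 and 6 stood far above the rest. The difference was 2.33 ± 0.59 SE, 5.03-fold (adjusted p = 0.0467), and 1.30 without old mice 5 and 6, when it no longer passed (adjusted p = 0.071). Within single chips it ran from 1.37 to 5.27.

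Rrad, a small GTPase that restrains voltage-gated calcium channels, followed the same order. It ran from 5.54 to 6.58 in young mice (median 5.91) and from 7.34 to 9.35 in old mice (median 7.63), again with old mice 5 and 6 highest, and was detected on 5 of 10 young arrays. The rise was 4.21-fold (2.07 ± 0.43 SE, adjusted p = 0.0239) and was 1.53 without those mice, with an adjusted p of 0.078.

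Myh8, the perinatal myosin heavy chain, was more evenly raised. It ran from 6.88 to 7.41 in young mice (median 7.15) and from 7.69 to 9.26 in old mice (median 8.25), with no overlap. The difference of 1.16 ± 0.19 SE (adjusted p = 0.00542) passed in all 12 fits that left out 1 mouse and without old mice 5 and 6 (0.89, adjusted p = 0.017). Both other kept probes of Myh8 were higher in old mice, by 0.52 and 0.83.

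Uchl1, a ubiquitin hydrolase abundant in neurons, rose by 1.21 ± 0.26 SE (adjusted p = 0.0243) and was detected on 2 of 10 young and all 7 old arrays. Gadd45a, a stress-inducible protein of the growth arrest family that also belongs to the p53 list, ran from 9.30 to 9.71 in young and from 9.84 to 11.89 in old mice. Its rise of 1.15 ± 0.27 SE (adjusted p = 0.0396) was 0.67 without old mice 5 and 6 (adjusted p = 0.056). Myod1, a myogenic transcription factor, ran from 6.36 to 7.23 in young and from 7.21 to 7.74 in old mice. It rose by 0.62 ± 0.16 SE (adjusted p = 0.0452), and its order among old mice was another one, with mouse 1 highest. Myog, its partner in the myogenic cascade, did not pass (0.99 ± 0.26 SE, adjusted p = 0.0525), nor did Ankrd1 (1.21, adjusted p = 0.0692), Cdkn1a, which encodes the cell cycle inhibitor p21 (0.95, adjusted p = 0.0843), or Actc1, the cardiac actin (1.06, adjusted p = 0.195). Old mouse 6 was the highest old mouse in 12 of the 16 genes, and old mouse 5 was among the 2 highest in 10. These 2 mice also differed from the other old mice in adipocyte markers, of which 9 of 12 were detected (Retn, Fabp4 and Cfd were not). The mean level of these markers was 8.02 and 8.30 in old mice 5 and 6, between 9.05 and 9.54 in the other old mice and between 8.06 and 9.68 in young mice. The summed level was 12.99 and 13.43, against 13.85 to 14.33 and 13.38 to 14.34. Macrophage markers were highest in the same mice (mean levels of 8.79 and 8.94), with old mouse 3 close behind (8.76). The part of either list in the denervation result was not tested.

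**Figure D3:**
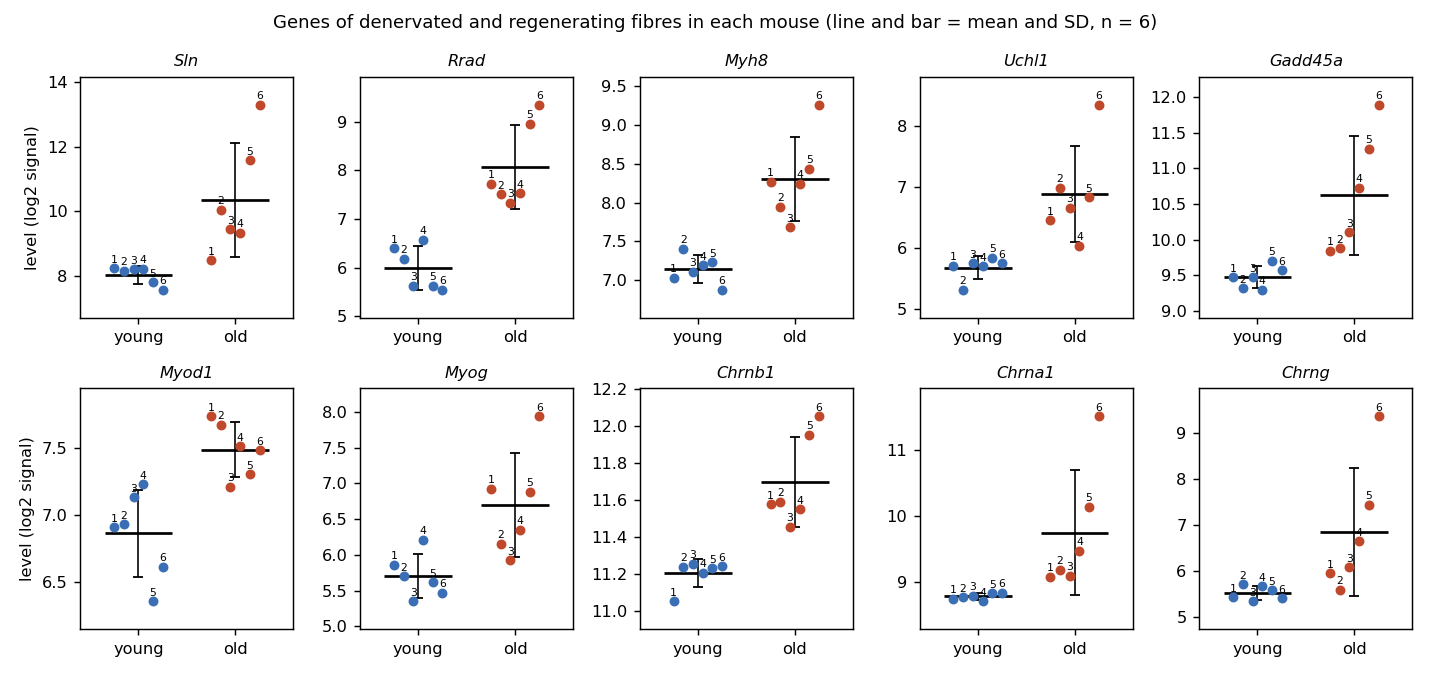
Level (log2 signal) of 10 genes of denervation, the myogenic response and the acetylcholine receptor in each mouse; numbers name the mouse, lines are group means and bars SD (n = 6 per group). Old mice 5 and 6 are highest in Sln, Rrad, Gadd45a, Chrnb1, Chrna1 and Chrng, while old mouse 1 is highest in Myod1.

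At the neuromuscular junction, where the acetylcholine receptor gathers under the nerve ending, 1 of 12 measured genes rose, none fell and 11 were higher in old mice (median 0.26). The gene that passed was Chrnb1, the beta subunit of the receptor. It ran from 11.05 to 11.26 in young mice (median 11.23) and from 11.46 to 12.05 in old mice (median 11.58). The groups were separate, and the difference of 0.49 ± 0.09 SE (adjusted p = 0.013) passed in all 12 fits without 1 mouse. The alpha subunit Chrna1 was separate too (8.70 to 8.83 against 9.07 to 11.52) but did not pass (0.97 ± 0.30 SE, adjusted p = 0.0872), and old mouse 6 lay far above the other mice. It passed without old mice 5 and 6 (0.43, adjusted p = 0.043). Chrng, the gamma subunit of the fetal receptor, was detected on none of the 10 young arrays and on 5 of the 7 old arrays, at 5.59 to 9.36 in old mice (adjusted p = 0.112). Chrne, the epsilon subunit of the adult receptor (0.38, adjusted p = 0.077), the kinase Musk (0.31, adjusted p = 0.24) and the adhesion molecule Ncam1 (0.51, adjusted p = 0.196) did not pass.

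The start regions of Chrna1 and Chrng are shown because both genes were highest in the same old mice. Myogenic factors bind E-boxes, and the form CAGCTG, which reads the same on both strands, occurred in 16.3% of the 32851 start regions (from 250 bases before to 50 after a start site) of the RefSeq annotation of GRCm38.p6. Among measured genes of the junction list that had such a region, 5 of 9 held it (Chrna1, Chrne, Chrng, Etv5 and Musk), and in the denervation and myogenic list 2 of 11 did (Arpp21 and Cdkn1a). None of these genes passed between the ages, so no call of either list held the motif. Among all tested genes the share was 18.0%, and among the genes that rose it was 22.9% (22 of 96). Both regions below have 2 matches, in capitals, and a match is a description and not a site. The region of Chrna1 is chr2:73580289-73580588 on the minus strand, and that of Chrng is chr1:87205561-87205860 on the plus strand, both written 5′ to 3′ along the gene.
Chrna1: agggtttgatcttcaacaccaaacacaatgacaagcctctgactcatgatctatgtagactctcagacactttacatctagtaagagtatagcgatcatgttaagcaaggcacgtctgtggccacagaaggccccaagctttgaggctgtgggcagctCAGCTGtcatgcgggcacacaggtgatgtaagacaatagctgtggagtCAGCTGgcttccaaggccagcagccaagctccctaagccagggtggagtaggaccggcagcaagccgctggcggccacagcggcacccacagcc
Chrng: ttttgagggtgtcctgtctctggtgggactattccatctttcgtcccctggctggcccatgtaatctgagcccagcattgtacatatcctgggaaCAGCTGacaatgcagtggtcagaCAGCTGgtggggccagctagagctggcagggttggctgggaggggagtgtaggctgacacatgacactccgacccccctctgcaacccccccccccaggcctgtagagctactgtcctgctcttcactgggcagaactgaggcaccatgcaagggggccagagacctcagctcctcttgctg

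Contractile genes of both fibre types changed little or unevenly. None of 14 slow fibre genes passed (median 0.30, 11 higher in old mice). Tnni1, the slow troponin I, ran from 4.87 to 7.27 in young and from 5.54 to 7.67 in old mice (adjusted p = 0.388). Old mouse 5 was the lowest old mouse in 8 of these genes, and the list median ran from 0.18 to 0.53 as single mice were left out. None of 17 fast fibre genes passed (median -0.04, 14 lower in old mice). The mean level of the fast list was slightly lower in old mice without overlap (14.51 to 14.58 in young and 14.43 to 14.49 in old mice). Myh4, the fast myosin of type IIB fibres, overlapped almost wholly (15.08 to 15.22 against 14.88 to 15.21). The lowest p among fast fibre genes belonged to Casq1, calsequestrin of the sarcoplasmic reticulum, which lay at 11.28 to 11.62 in young and 10.70 to 11.22 in old mice (-0.49 ± 0.14 SE, adjusted p = 0.0669). Of 24 genes of ion channels and calcium handling, Sln was the one that passed (median -0.02).

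Synm, which encodes the intermediate filament protein synemin, fell. It ran from 13.96 to 14.37 in young mice (median 14.23) and from 13.13 to 14.00 in old mice (median 13.24). Old mice 1 and 4 reached the young range and the other old mice lay well below it. The difference was -0.73 ± 0.17 SE (adjusted p = 0.0324), and all 3 other kept probes of Synm were lower in old mice, with differences of -0.73, -0.48 and -0.35. It was the one call among 17 genes of the sarcomere and Z-disc (median -0.03). In the list of 20 genes of the dystrophin complex, caveolae and intermediate filaments, Synm fell and Cavin4, a muscle-specific caveolar coat protein, rose by 0.31 ± 0.07 SE (adjusted p = 0.0272; list median -0.02).

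Inflammatory genes rose in small numbers but evenly. Of 20 genes of complement and inflammation, 3 rose and none fell (median 0.17). C4a, a component of the complement cascade, ran from 8.82 to 9.51 in young mice (median 9.05) and from 9.86 to 10.14 in old mice (median 9.95). The groups were separate, and the old mice covered less range than the young. The rise was 0.86 ± 0.13 SE (adjusted p = 0.00424), and within single chips 0.62 to 0.91. C4b rose by 0.69 ± 0.15 SE (adjusted p = 0.0243), but C4a and C4b are near-identical copies, so their probes may not measure separate genes. Casp4, an inflammatory caspase, ran from 5.04 to 6.10 in young mice and from 6.13 to 6.45 in old mice, and rose by 0.68 ± 0.14 SE (adjusted p = 0.0226). Its relative Casp1 (0.35, adjusted p = 0.0668) and the chemokine Ccl8 (0.94, adjusted p = 0.168) did not pass.

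Among factors and targets of NF-kB, a family of transcription factors that drive inflammatory genes, 5 of 20 rose, none fell and 18 were higher in old mice (median 0.21). This list was drawn up after the values were seen. Nfkb2, the precursor of the p52 subunit, ran from 5.48 to 5.99 in young mice (median 5.81) and from 6.16 to 6.88 in old mice (median 6.50). Relb, its partner in the noncanonical pathway, ran from 6.25 to 6.72 (median 6.54) and from 6.96 to 7.24 (median 7.02). Both genes were separate between the ages, with every old mouse above every young mouse. Nfkb2 rose by 0.67 ± 0.12 SE (adjusted p = 0.00884) and Relb by 0.54 ± 0.09 SE (adjusted p = 0.005), and both passed in all 12 fits that left out 1 mouse. Rela, the main subunit of the canonical pathway, was level between the ages (adjusted p = 0.987).

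Of the targets of the family, 3 rose. The membrane chemokine Cxcl16 rose by 0.69 ± 0.14 SE (adjusted p = 0.0209) and the adhesion molecule Icam1 by 0.40 ± 0.09 SE (adjusted p = 0.0374). Icam1 was the less even of the pair, with young mouse 1 above old mouse 1 and differences within single chips of 0.01 to 0.61. Bcl2a1d, an antiapoptotic relative of Bcl2, was not detected on any young array, and its mean in old mice was at least 1.24-fold above the bound (adjusted p = 0.0239). It has close copies, of which Bcl2a1b did not pass (0.41, adjusted p = 0.0623). Of 14 measured macrophage markers, 10 were higher and 4 lower in old mice (median 0.19), with differences down to -0.29. None passed, with Lgals3 at 0.73 (adjusted p = 0.0563) and Mpeg1 at 0.58 (adjusted p = 0.0835). Their mean level was 8.27 to 8.63 in young and 8.01 to 8.94 in old mice, and old mouse 4 was the lowest of all. In the NF-kB list the mean level of every old mouse lay above that of every young mouse. The members of that list were chosen after the values were seen, so this separation cannot be set against the overlap in macrophage markers. The summed level of the macrophage markers was 13.26 to 13.62 in young and 12.96 to 13.97 in old mice. No probe of Cd68, Itgam or Ptprc was detected. The part of the macrophage markers in the NF-kB result was not tested.

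The start region of Nfkb2 is shown because the gene rose and held a kappa B type motif. The motif searched was GGG and TTTCC with any 2 bases between them, on both strands and with overlaps allowed, and it occurred in 1.63% of the start regions, in 2.01% of those of tested genes and in 5 of 96 (5.21%) of those of risen genes. In the NF-kB list 4 of 16 genes with a region held it (Nfkb2, Nfkbia, Tnfaip3 and Traf2), and of these only Nfkb2 rose. The match, in capitals, begins 11 bases before 1 of the 3 starts listed for the gene, in chr19:46304487-46304786 on the plus strand of GRCm38.p6 (RefSeq).
Nfkb2: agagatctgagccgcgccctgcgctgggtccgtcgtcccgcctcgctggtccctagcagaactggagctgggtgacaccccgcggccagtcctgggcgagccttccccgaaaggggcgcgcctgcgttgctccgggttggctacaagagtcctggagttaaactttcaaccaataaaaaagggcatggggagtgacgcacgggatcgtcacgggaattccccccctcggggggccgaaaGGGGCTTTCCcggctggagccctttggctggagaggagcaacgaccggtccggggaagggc

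**Figure D4:**
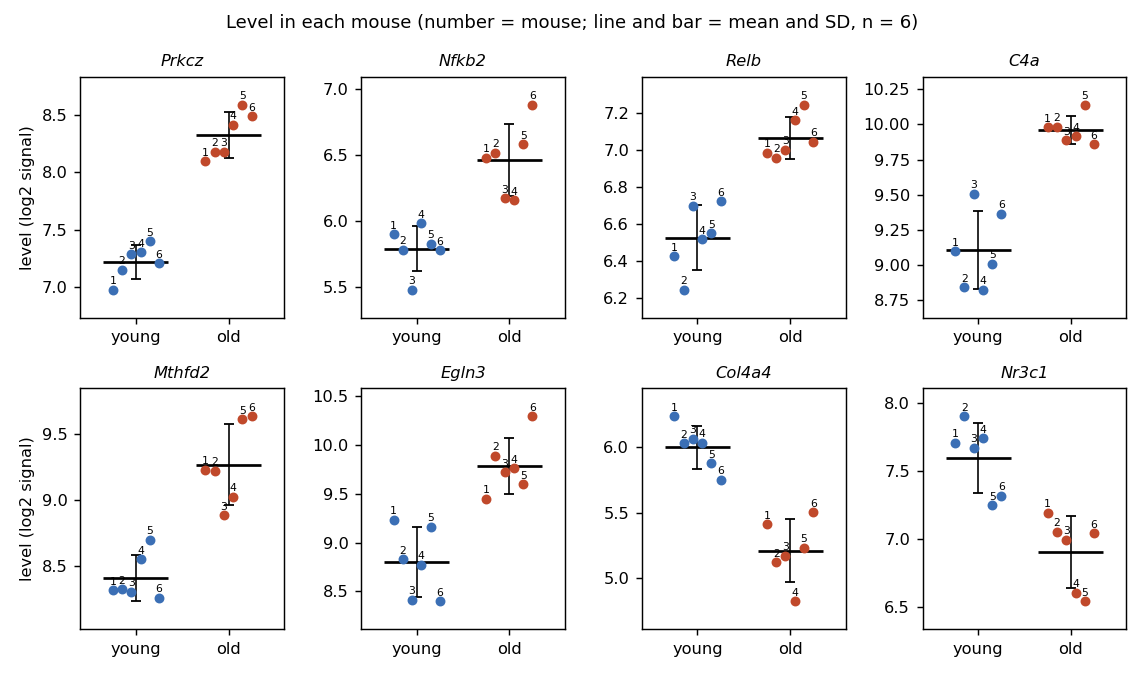
Level (log2 signal) of 8 genes that rose or fell in each young and old mouse; numbers name the mouse, lines are group means and bars SD (n = 6 per group). All 8 genes are separate between the ages, with Prkcz at 6.98 to 7.40 in young and 8.10 to 8.59 in old mice. Col4a4 was not detected on any old array.

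Of 24 interferon and antigen presentation genes, 2 rose and none fell (median 0.20). Rsad2, an antiviral protein also called viperin, ran from 6.37 to 7.31 in young mice and from 7.31 to 8.26 in old mice, and rose by 0.87 ± 0.21 SE (adjusted p = 0.0394). Isg15, a ubiquitin-like modifier, rose by 0.40 ± 0.10 SE (adjusted p = 0.0466). One animal stood out: old mouse 1 was the highest old mouse in 20 of the 24 genes, and without it the list median was 0.00. Igtp, an interferon-inducible GTPase, reached 9.82 in that mouse and 7.21 to 7.73 in the other old mice (adjusted p = 0.149).

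Collagens pointed the other way. Of 26 collagens and collagen-modifying enzymes, 23 were lower in old mice and 1 fell (median -0.40), and of 24 matrix proteoglycans and glycoproteins, 22 were lower and 2 fell (median -0.29). Col4a4, a chain of basement membrane collagen, ran from 5.75 to 6.23 in young mice (median 6.03) and from 4.83 to 5.51 in old mice (median 5.20). It was detected on 5 of 10 young arrays and on no old array, so its fall of at least 1.03-fold (adjusted p = 0.00632) is a bound near the detection limit. Among the arrays compared, it met the detection filter only through the young mice, where it was higher, and its old values are background. Nid2, a nidogen of the same membranes, fell by 0.56 ± 0.12 SE (adjusted p = 0.0272), with the groups separate. Abi3bp, a matrix protein, fell by 0.76 ± 0.16 SE (adjusted p = 0.0237) and overlapped through old mouse 3. A second kept probe of Abi3bp differed by -0.18, with an unadjusted limma p of 0.149.

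The fibrillar collagens had larger differences with wide spread. Col1a1 ran from 7.99 to 8.79 in young and from 6.66 to 8.19 in old mice (-0.86 ± 0.24 SE, adjusted p = 0.0666), and Col6a1 from 10.13 to 10.68 and from 9.18 to 10.36 (-0.63, adjusted p = 0.0521). Col3a1 did not pass (-0.59, adjusted p = 0.181). Old mice 1 and 4 were the lowest in 11 and 8 of the 26 genes, and old mouse 6 the highest in 16. In the fit without old mice 5 and 6, 8 of the 26 fell, against 46 of all 8943 genes. That fit leaves out the old mouse that was highest in most of these genes, so its count is no separate evidence of a fall. Without young mice 1, 2 and 3 the median was -0.32, and within chips it lay between -0.54 and -0.03. Of the fibroblast markers, 11 of 12 were lower (median -0.49) and none passed. That list itself holds Col1a1 and Col3a1, so it is not independent of the collagen genes. Its mean level was 9.23 to 9.47 in young mice and 8.48 to 9.34 in old mice. The summed level was 14.68 to 14.75 and 14.08 to 14.74, and both were lowest in old mice 1 and 4. All 12 fibroblast markers were detected, and their part in the collagen result was not tested.

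Genes of protein breakdown did not rise as a group. Of 20 genes of the atrophy and FoxO list, 3 fell and none rose (median 0.02). Nr3c1, the glucocorticoid receptor, ran from 7.25 to 7.90 in young mice (median 7.69) and from 6.54 to 7.19 in old mice (median 7.02), with no overlap, and fell by 0.69 ± 0.17 SE (adjusted p = 0.0413). Foxo4, a FoxO transcription factor, fell by 0.48 ± 0.11 SE (adjusted p = 0.0272), and Smad3, which carries signals of TGF beta and myostatin, by 0.45 ± 0.11 SE (adjusted p = 0.0404). Foxo4 was separate between the ages and Smad3 overlapped. The muscle ubiquitin ligases Fbxo32 (-0.40, adjusted p = 0.326) and Trim63 (-0.36, adjusted p = 0.367) did not pass. None of 27 proteasome genes did (median 0.06), and of 22 genes of autophagy and the lysosome Map1lc3a, an LC3 protein of the autophagosome, rose by 0.56 ± 0.14 SE (adjusted p = 0.0445; list median 0.09). The difference was 0.36 without old mice 5 and 6 (adjusted p = 0.1), and a second kept probe of Map1lc3a differed by 0.07.

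Mitochondrial genes, which the study was about, were nearly level between the ages. No gene passed among 34 of complex I (median 0.05), 12 of complexes II and III (0.06), 17 of complex IV (0.06), 18 of the tricarboxylic acid cycle (0.01), 25 of fatty acid oxidation and PPAR targets (0.00), 17 regulators of mitochondrial biogenesis (0.06), 15 of mitochondrial dynamics and mitophagy (-0.02) and 32 of the mitochondrial ribosome (0.11). Of 15 genes of complex V, Atp5e, the epsilon subunit of ATP synthase, rose by 0.42 ± 0.10 SE (adjusted p = 0.0417; list median 0.10). Ppargc1a, the coactivator PGC-1 alpha, ran from 8.39 to 8.60 in young and from 8.00 to 8.59 in old mice (adjusted p = 0.438). When arrays were scaled to the 75th percentile, the medians of complexes I to V moved up to between 0.15 and 0.21, and 1, 1, 1 and 2 of the genes of complexes I, II and III, IV and V passed.

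**Figure D5:**
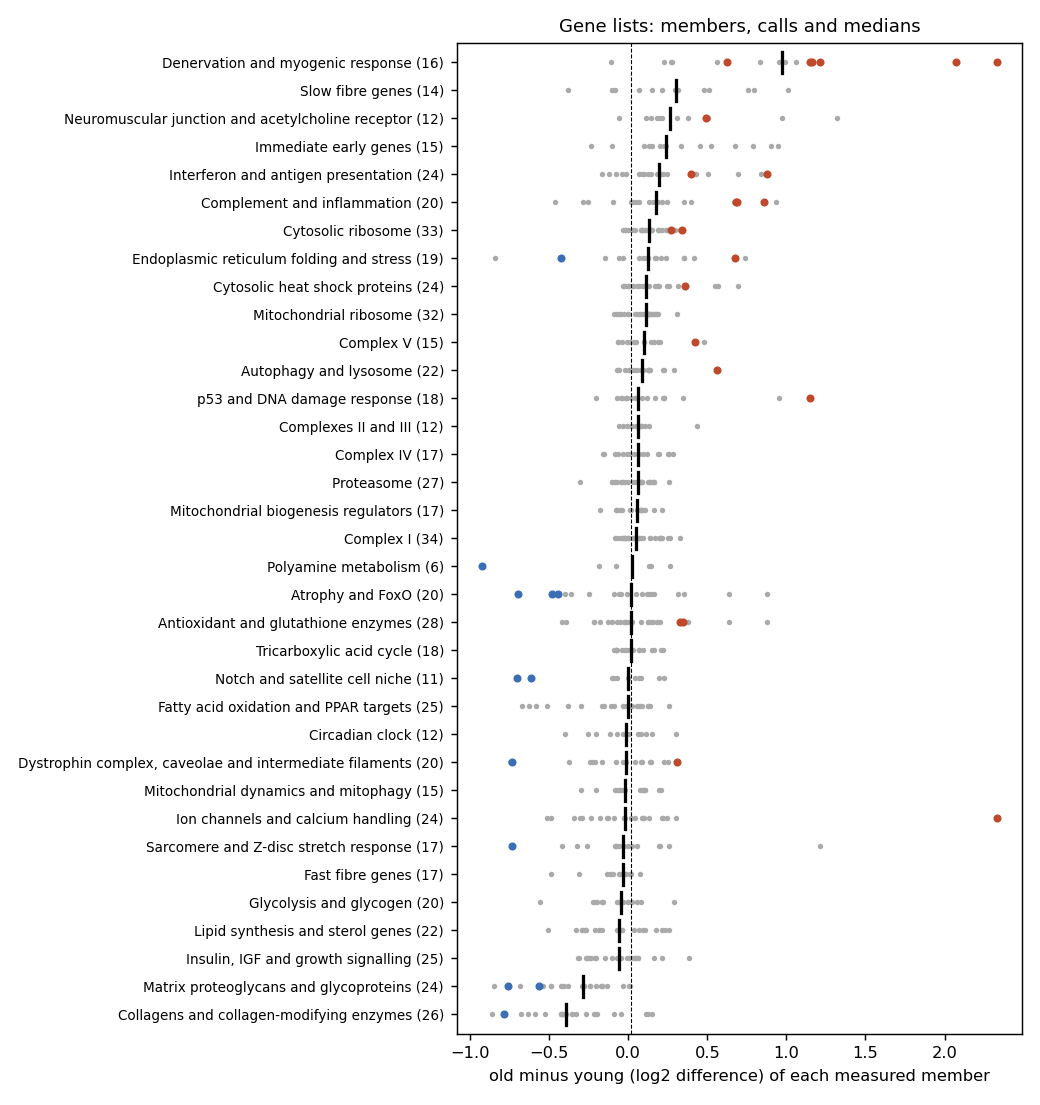
Difference between old and young mice (log2) of every measured member of the pathway lists, each list on its own line with the number measured in brackets. Lists of cell type markers and the lists added later are not shown. The lists shown were also chosen with earlier results of these data known. Red points rose, blue points fell, grey points did not pass, black ticks are list medians and the dashed line is the median of all genes (0.02); of the lists shown, denervation genes lie farthest right (0.97) and collagens farthest left (-0.40).

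Stress and redox genes gave scattered calls. Mthfd2, the mitochondrial folate enzyme of one-carbon metabolism, ran from 8.26 to 8.70 in young mice (median 8.32) and from 8.89 to 9.64 in old mice (median 9.23). The groups were separate, and the rise of 0.86 ± 0.13 SE (adjusted p = 0.00359) was seen with a second kept probe as well (0.85). Trib3, a pseudokinase induced by the stress factor ATF4, rose by 0.68 ± 0.14 SE (adjusted p = 0.0226). Its difference was 0.45 without young mice 1, 2 and 3. These were the 2 calls among 20 ATF4 targets and one-carbon enzymes (median 0.08), a list drawn up after the values were seen, in which Asns, asparagine synthetase, did not pass (0.74, adjusted p = 0.0715).

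In the endoplasmic reticulum, Trib3 was joined by Calr, the chaperone calreticulin, which fell by 0.43 ± 0.09 SE (adjusted p = 0.0247), and the other 17 of 19 genes did not pass (median 0.13). Of 28 antioxidant and glutathione enzymes 2 rose (median 0.02). Gpx4, which reduces lipid peroxides, ran from 13.71 to 14.02 in young and from 14.04 to 14.28 in old mice and rose by 0.35 ± 0.07 SE (adjusted p = 0.0215). Gstm2, a glutathione transferase, rose by 0.32 ± 0.08 SE (adjusted p = 0.0419). Txn2, the mitochondrial thioredoxin (0.35, adjusted p = 0.0525), and the metallothionein Mt2 (0.88, adjusted p = 0.0573) did not pass. Hspb2, which muscle makes as a partner of other small chaperones, rose by 0.36 ± 0.08 SE (adjusted p = 0.0243), the one call among 24 heat shock genes (median 0.11). In the p53 list of 18 genes Gadd45a was the one call (median 0.06).

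Egln3 and Ankrd37, both induced by hypoxia-inducible factors, rose with age. Egln3, a prolyl hydroxylase that acts on those factors, ran from 8.40 to 9.23 in young mice (median 8.80) and from 9.45 to 10.29 in old mice (median 9.74). Each old mouse was above each young mouse, and the rise was 0.98 ± 0.16 SE (adjusted p = 0.00515). Ankrd37 rose by 0.59 ± 0.12 SE (adjusted p = 0.0238), again with separate groups, and both genes passed in all 12 fits that left out 1 mouse. They were the only calls among 25 such targets, a list drawn up after the values were seen, whose median was 0.03, and Vegfa, the vascular growth factor, was level (adjusted p = 0.993).

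The largest falls were those of Htra4 and Gpcpd1, which are in none of the lists. Htra4, a secreted serine protease, ran from 7.24 to 8.12 in young mice (median 7.40) and from 5.20 to 7.61 in old mice (median 6.32), and fell by 1.20 ± 0.27 SE (adjusted p = 0.0295). Old mouse 3 lay inside the young range and the other 5 old mice below it. Gpcpd1, which splits glycerophosphocholine, ran from 9.05 to 9.36 and from 7.26 to 8.72, lowest in old mice 5 and 6, and fell by 1.04 ± 0.22 SE (adjusted p = 0.0243). Its difference was -0.69 without those mice (adjusted p = 0.056). Amd2, an S-adenosylmethionine decarboxylase copy that shares sequence with Amd1, fell by 0.92 ± 0.20 SE (adjusted p = 0.0243), the one call among 6 polyamine genes (median 0.03). A second kept probe of Amd2 differed by -0.28, with an unadjusted limma p of 0.0623.

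Further falls were Auts2 by 0.75, Cpeb1, a regulator of cytoplasmic polyadenylation, by 0.71, Ubr3, a ubiquitin ligase, by 0.67, and Vps37a, a subunit of the ESCRT-I sorting complex, by 0.64, with adjusted p of 0.0235, 0.013, 0.0238 and 0.005. Zfp91, Ubxn2a, Arhgap20, Zbed6, which represses Igf2 in muscle, and Heca fell by 0.53 to 0.61 (adjusted p 0.00542 to 0.0445). Chm, an escort protein for Rab GTPases, was not detected on any old array and fell by at least 1.04-fold (adjusted p = 0.0341). A second kept probe of Ubxn2a differed by -0.09, with an unadjusted limma p of 0.674. In the Notch and satellite cell list 2 of 11 genes fell (median 0.00): Dlk1, an imprinted inhibitor of differentiation, by 0.70 (adjusted p = 0.0353) and Heyl, a Notch target, by 0.62 (adjusted p = 0.0413). Without young mice 1, 2 and 3 the difference for Heyl was -0.35. None of the satellite cell markers passed (5 measured, median 0.14).

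Further large rises outside the lists were Slc23a3, a relative of the vitamin C transporters (1.34 ± 0.25 SE, adjusted p = 0.0126), Ttc9 (1.36, adjusted p = 0.031), the glutamate transporter Slc1a3 (1.15, adjusted p = 0.0346), the cell cycle factor E2f2 (1.10, adjusted p = 0.0376) and Armh4 (0.99, adjusted p = 0.0215). Slc23a3 ran from 5.41 to 6.79 in young and from 6.79 to 8.42 in old mice and passed in all 12 fits without 1 mouse. Ttc9 was detected on 2 of 10 young and 6 of 7 old arrays. The differences of Ttc9 and E2f2 were smaller without old mice 5 and 6 (0.88 and 0.69, adjusted p = 0.062 and 0.1). The tubulin Tubb6 (0.91, adjusted p = 0.0413) and the ciliary protein Tekt1 (0.93, adjusted p = 0.0417) rose too. A probe that the platform annotation assigns to the vomeronasal receptor Vmn1r65 rose by 1.18 (adjusted p = 0.0275) at 8.83 to 11.19, and what it measures in muscle was not tested.

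The remaining lists held few calls. Of 33 cytosolic ribosomal proteins, Rplp0 (0.34, adjusted p = 0.0243) and Rps19 (0.27, adjusted p = 0.0465) rose (median 0.13), and probes of such genes may also read their pseudogene copies. No gene passed among 15 immediate early genes (median 0.24; Egr1 at 0.95, adjusted p = 0.0963), 25 of insulin, IGF and growth signalling (-0.06; Irs1 at -0.32, adjusted p = 0.0954), 20 of glycolysis and glycogen (-0.05), 22 of lipid and sterol synthesis (-0.06) and 12 of the circadian clock (-0.01). Nor did any marker of endothelium (12 measured, median -0.10), smooth muscle (7, -0.18), adipocytes (9, 0.29), brown adipocytes (6, 0.10), nerve and Schwann cells (5, 0.02), tendon (5, -0.54), lymphocytes (3, 0.67), erythroid cells (6, 0.61), or bone marrow and cartilage (2, 0.46). The hepatocyte and neutrophil lists had 8 measured genes each, with medians of -1.60 and 0.87 and no call, and the muscle fibre list 8, with a median of -0.07.

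Old mice differed more from each other than young mice did. The SD between mice had a median of 0.19 in old and 0.14 in young mice and was larger in old mice for 73.6% of genes, or 70.3% when 1 array was taken per mouse. An SD over 1 was found for 55 genes in old and 21 in young mice. Among the 184 genes that passed, 130 had the larger SD in old mice. Among the 120 rises, old mouse 6 was the highest old mouse for 50, mouse 5 for 29 and mouse 3 for none, while mice 1 and 3 were the lowest for 37 and 39. At the other end, 5 genes that passed were the most even among old mice: Cuedc2 ran from 10.20 to 10.32, Btrc, an F-box protein of a ubiquitin ligase that acts on inhibitors of NF-kB, from 8.80 to 8.91, Uap1l1 from 8.36 to 8.48, Cibar1 from 8.58 to 8.74 and Oxld1 from 10.19 to 10.38. All 5 were separate from the young mice, with Cibar1 lower and the others higher. Btrc rose by 0.30, and its difference was 0.19 without young mice 1, 2 and 3.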

How the data were processed

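Gastrocnemius RNA was measured on Illumina bead arrays. Per the labels' protocols, RNA was extracted with an RNeasy kit and biotin-labelled with the MessageAmp kit. Per the file headers, the deposited table holds, for every probe on every array, an average signal intensity with its detection p-value. GenomeStudio is named in the submitters' processing notes, without a version. The authors' series matrix holds intensity values with equal column medians (98.6 to 98.7), close to quantile-normalized signals, and served as an alternative.

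All 24 arrays went through limma's neqc (limma 3.58.1, R 4.3.3, offset 16), which subtracts background and equalizes quantiles. A probe was kept if 5 or more arrays detected it (p under 0.01), which left 15268, and was named through the platform annotation where it gave 1 symbol (34885 probes had 1, 18 several, 10378 none). Kept probes without a symbol, 2003 in all, were not named. Arrays of a mouse were averaged, and the probe of highest mean stood for a gene. Deviations from the mean of all 24 arrays correlated at a median of 0.615 between arrays of an ad libitum mouse. Between arrays of different ad libitum mice of a group the median was 0.0051. Old and young were compared with limma (lmFit, eBayes, 1 fit over 17 mice, Benjamini-Hochberg over 8943 genes, threshold 0.05, two-sided). For fold bounds an undetected probe was set on each array to its own value or the lowest detected signal, whichever was higher. The fit was tested on simulated data. The number of mice limits the precision.

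Alternatives were other background corrections, scalings, filters, probe rules, prior and weights, a replicate block, the chip as a block, and leaving out each mouse. Another 6 were chosen after seeing the data: leaving out old mice 5 and 6, young mice 1, 2 and 3, or those young mice with old mouse 3, scaling to the 75th percentile of kept probes, testing all probes singly, and the SD with 1 array per mouse. The members, lists, tests and alternatives were chosen with earlier results of these data known. Named genes were the 20 largest rises and falls, the 10 smallest adjusted p, list members past the threshold and up to 4 others a list, the 5 largest and 5 smallest SDs in old mice, and genes detected in 1 age only. Camp, Mpo, Mup2, Rela, Vegfa, Ucp1 and members of the lists drawn up later were added after their values were seen. Promoter regions came from RefSeq (GRCm38.p6). Figures were drawn with matplotlib 3.10.9.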

Additional observations from a re-analysis of the deposited data

Results flagged for a closer look

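In 107 genes named here, each tested in the young and in the old group (214 groups of 6), 21 groups had 1 outlying mouse. In these the gap of that mouse to the next was too large a share of the group's range by Dixon's 95% criterion. Chance alone meets it in about 1 group in 20, but the named genes were not a random draw. Camp and Mpo were added after their values were seen, and some genes were named for the largest SD in old mice. The count therefore cannot be set against that share. Of the 21 groups, 13 lay in the young and 8 in the old group. Old mouse 3 was high in S100a9 (12.28), Camp (10.15) and Mpo (9.72), all genes of neutrophils, and low in Ece2 (6.73). Old mouse 1 was high in Igtp (9.82), the interferon-inducible GTPase, and in Auts2 (11.51), where the other old mice were at or below 10.73. Old mouse 4 was high in Spock2 (7.49) and old mouse 5 in Cracdl (7.81). Young mouse 1 was high in Ttc9 (6.23), Calr (8.66) and Icam1 (7.07) and low in Chrnb1 (11.05) and Chrne (7.60). Young mouse 2 was low in Uchl1 (5.31) and Cracdl (5.46). Young mouse 3 was high in Abi3bp (7.41) and low in Atp5e (11.00), young mouse 4 was low in Bcl2a1d (5.28), young mouse 6 was high in Slc1a3 (7.43), and young mouse 5 was high in Ankrd1 (10.62) and in the ubiquitin ligase Trim63 (11.96).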

How the results depend on the processing

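All 184 genes kept their direction in 26 of the settings compared, wherever tested, and without the mice named below. These settings used mice that had also served to choose the genes. Against 184 genes (120 rises, 64 falls), scaling to the 75th percentile gave 280 (226 rises), no detection filter 95 (67 and 28), the mean of a gene's probes 286 (129 falls), 24 arrays with the mouse as a random block 284 (127 falls), the chip added as a block 281 (106 falls), and array weights 482 (256 and 226). Leaving out 1 mouse gave 32 to 262 genes, 26 to 156 rises and 6 to 106 falls: 79, 32, 74 and 79 without young mouse 1, 2, 3 or 4, 94 and 68 without old mouse 2 or 5. Without old mice 5 and 6 there were 108 (62 rises), without young mice 1, 2 and 3 there was 1 (1 rise, 0 falls by limma, with 767 genes at an unadjusted p under 0.05), without those and old mouse 3 there were 2 (2 rises, 0 falls; 875 at an unadjusted p under 0.05), and all kept probes tested singly gave 510 (237 and 273). Fits without a mouse hold fewer samples, and the cause of the other shifts was not tested. The replicate block gave 107 genes (70 and 37), but the numbers did not pair the samples: same-numbered young and old mice had correlations of -0.24 to 0.17 in their deviations. The old minus young difference in detected probes was -331.6 to -77.2 with 1 mouse left out and -455.8 at a detection p under 0.05 (two-sided exact permutation test over n = 6 and 6, p = 0.0541). Among 3623 values of the named genes under these settings, none reversed a gene that passed. Genes near the detection limit, such as Col4a4, Spock2 and Bcl2a1d, are limited by signal over background. Among the arrays compared, Col4a4, Chm, Spock2 and Bcl2a1d were detected only in the age where they were higher.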

Other observations

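Probes without a gene symbol behaved like named probes: tested singly, 80 of the 2003 (3.99%) passed, 33 higher and 47 lower in old mice, against 3.24% of kept probes with a symbol. Of 86 further kept probes of 63 genes that passed, 82 differed in the same direction as the probe used, 63 of them with an unadjusted p under 0.05. Brown fat genes varied between mice of both ages: Ucp1, the uncoupling protein of brown fat, was highest in young mouse 6 (8.86) and old mouse 4 (8.04).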
